A study of Mus musculus with 13 samples.

Results

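The cluster of miR-322, miR-503, miR-351, miR-542 and miR-450 is a run of microRNA hairpins on the mouse X chromosome. It was taken as every array feature, controls left out, named as a mature form of mmu-miR-322, mmu-miR-503, mmu-miR-351, mmu-miR-542 or mmu-miR-450a, whichever arm of the hairpin it comes from. This gave 11 mature forms of the 1079 mouse miRNAs on the array. MicroRNA levels had been measured with 1-colour Agilent arrays in 13 primary abdominal neuroblastomas, 1 array for each tumour. Of these, 7 tumours were deficient in caspase-8 and came with bone marrow metastasis, and 6 had wild-type caspase-8 and no metastasis. The series title places all tumours in TH-MYCN mice, in which the MYCN oncogene is driven in the sympathetic lineage by the tyrosine hydroxylase promoter. Genotype and metastasis changed together, so their effects cannot be told apart. The sources used here do not say how caspase-8 was lost, nor the age, sex or strain of the mice. The tumours are labelled as biological replicates.

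A microRNA hairpin can give a mature strand from its 5p arm, its 3p arm or both, and the seed, the bases near the 5′ end that pair with target mRNAs, largely sets which genes it represses. miR-322 (miR-424 in human) and miR-503 belong to the miR-15/16 group of cell cycle repressors, whose targets include Cdc25a and cyclin D1, and in mouse myoblasts they act as the cells leave the cell cycle. miR-351-5p carries the seed of the miR-125 family. miR-542 and miR-450 come from hairpins further along the same stretch.

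The mature sequences, from RefSeq (GRCm38.p6), are shown because the seeds place the cluster in several families. All 11 forms had an entry, and capitals mark the seed, bases 2 to 8. The first group holds the forms of the 3 hairpins at the start of the cluster.
miR-322-5p: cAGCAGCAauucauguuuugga
miR-322-3p: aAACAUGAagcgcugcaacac
miR-503-5p: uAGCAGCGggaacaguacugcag
miR-503-3p: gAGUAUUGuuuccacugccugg
miR-351-5p: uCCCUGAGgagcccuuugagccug
miR-351-3p: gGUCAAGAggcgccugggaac

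The second group holds the forms of miR-542 and miR-450a, whose 5p form is shared by 2 hairpins that differ in their 3p arms.
miR-542-5p: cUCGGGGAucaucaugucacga
miR-542-3p: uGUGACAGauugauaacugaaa
miR-450a-5p: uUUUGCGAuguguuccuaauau
miR-450a-1-3p: aUUGGGAAcauuuugcauaaau
miR-450a-2-3p: aUUGGGGAugcuuugcauucau

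For comparison, miR-16-5p and miR-125b-5p, which lie on other chromosomes, share seeds with miR-322-5p and miR-351-5p.
miR-16-5p: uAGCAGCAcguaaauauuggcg
miR-125b-5p: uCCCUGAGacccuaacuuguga

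miR-322-5p had the same 7 seed bases as miR-15a-5p, miR-15b-5p and miR-16-5p. miR-503-5p shared bases 2 to 7 with them and differed at base 8. miR-351-3p shared its seed with 0 other tested miRNAs that had a sequence, and its GC content of 66.7% (14 of 21 bases) was the highest of the cluster's forms.

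The hairpins of miR-322 and miR-503 lie next to each other on the minus strand, Mir322 at chrX:53054255-53054349 and Mir503 at chrX:53053984-53054054. They are shown because the arms in capitals, miR-322-5p and miR-503-5p, are those that were detected.
Mir322: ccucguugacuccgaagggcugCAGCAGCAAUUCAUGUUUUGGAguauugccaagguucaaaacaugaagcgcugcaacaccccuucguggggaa
Mir503: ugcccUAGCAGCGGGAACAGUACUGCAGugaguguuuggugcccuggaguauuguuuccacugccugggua

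The arrays carried 47604 spots each. With control spots left out, 0 were saturated, and the scanner software called between 338 and 469 mouse miRNAs detected on an array. All 6 microRNAs listed as neuroblast markers were detected on all 13 arrays. The tumours lay on 2 slides. Slide 1 held 5 deficient and 2 wild-type tumours, and slide 2 held 2 deficient and 4 wild-type tumours. Within a group a slide held 5 tumours at most, too few for a correlation. The number of arrays limits the precision. In bulk tumour RNA, fewer cells of a type and less RNA per cell cannot be told apart.

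Only some forms of the cluster were measurable. mmu-miR-322-5p and mmu-miR-351-3p were detected on 13 of 13 arrays. In wild-type tumour 3, mmu-miR-351-3p was near background, at an unscaled signal of 28.7. There the scanner software marked 5% of the spots of 1 probe and 0% of the other as well above background. mmu-miR-503-5p was detected in 6 of 7 deficient and 5 of 6 wild-type tumours. The other 8 forms were detected on 2 arrays or none, so that 3 of the 11 forms met the minimum of 6 arrays and were tested. Each form was read by 40 spots on every array, but the number of probes differed. The 3 tested forms had 2 probes each. The other arms of their hairpins, miR-322-3p, miR-503-3p and miR-351-5p, had 4 each, as had miR-542-5p and miR-450a-2-3p. Whether the probe design affected detection was not tested.

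Before scaling, mmu-miR-322-5p had a median signal of 380 over the 13 arrays, with a range from 141 to 734. mmu-miR-351-3p had a median of 169 and mmu-miR-503-5p a median of 45.0. These medians stood above the highest median among the 547 mouse miRNAs that were detected on no array, which was 20.5. Probes differ in brightness, so the 3 medians give no order of abundance.

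The other arm of each of these hairpins was not detected. mmu-miR-322-3p was detected on 0 of 13 arrays, with unscaled signals from -29.0 to -12.1, below zero after background subtraction in every tumour. miR-503-3p was also detected on 0 arrays, with a median of -16.8. miR-351-5p, the arm with the miR-125 seed, was detected on 0 arrays, with a median of 0.872. By these detection marks, the detected arm was the 5p arm for miR-322 and miR-503 and the 3p arm for miR-351. Whether the signal of the miR-351-3p probes came from that form alone was not tested.

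From the far part of the cluster, mmu-miR-542-5p, mmu-miR-542-3p and mmu-miR-450a-1-3p were detected on 0 arrays. Their medians were -7.07 for mmu-miR-542-5p, 5.00 for mmu-miR-542-3p and -7.38 for miR-450a-1-3p. The 2 arms of miR-450b, a neighbour outside the list, were also detected on 0 arrays.

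mmu-miR-450a-5p was detected in deficient tumour 1, at an unscaled signal of 29.1, and in wild-type tumour 6, at 36.3. By unscaled miR-322-5p signal those tumours had ranks 2 and 3 of the 13, and by scaled signal ranks 2 and 4. Their arrays were bright, with 75th percentiles of 1742 and 1929, the latter the highest of the 13. After scaling, deficient tumour 3 (23.4) and wild-type tumour 3 (22.8), where miR-450a-5p was not detected, had more of its signal than deficient tumour 1 (22.6). miR-450a-2-3p was detected in deficient tumours 2 and 5, at 115 and 52.4. Deficient tumour 2 had the lowest miR-322-5p signal of all 13, and the tumours in which the 2 forms were detected were different ones.

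**Figure D1:**
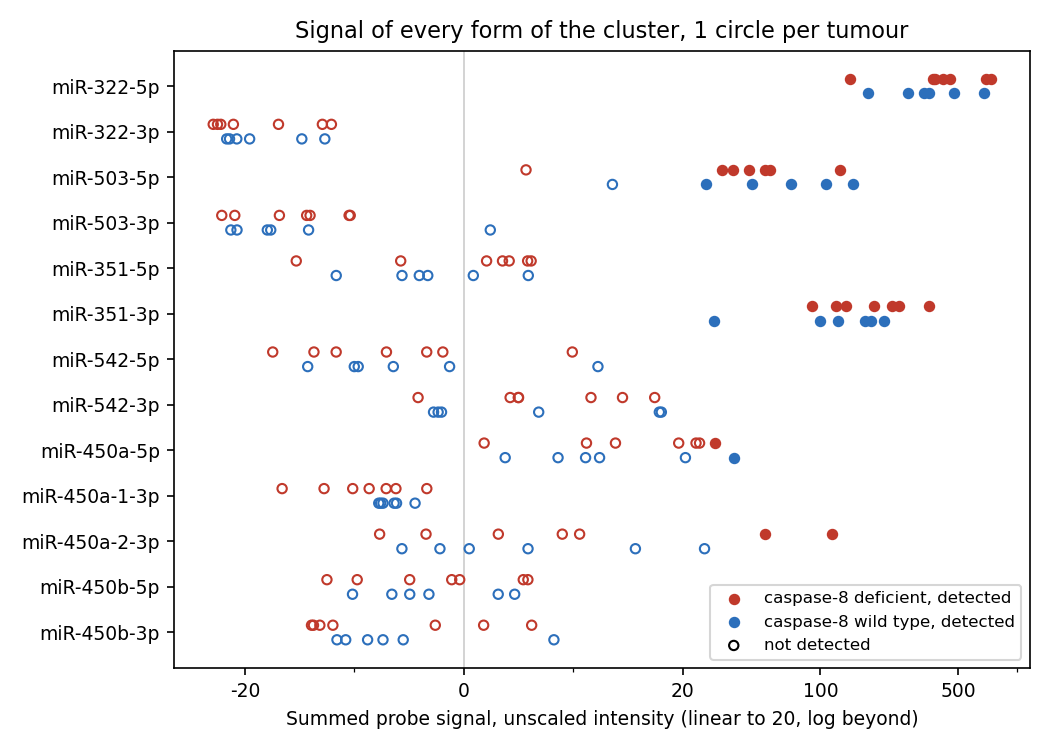
Unscaled signal (arbitrary units, linear up to 20 and logarithmic beyond) of each mature form, with miR-450b below, 1 circle for each of the 13 tumours, coloured by group. Filled circles are detected values: all 13 for miR-322-5p and miR-351-3p, 11 for miR-503-5p, 2 each for miR-450a-5p and miR-450a-2-3p, and 0 for the other forms.

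Caspase-8 deficiency with metastasis was then compared with wild-type caspase-8 without metastasis. Values are log2 signals after scaling of each array. The floor, which stands for signals too low to order, was 4.10. By limma with Benjamini-Hochberg adjustment at 0.05, 0 of the 3 tested forms were called, where 0% of all 419 tested miRNAs were called. At an unadjusted p under 0.05, limma gave 0 of the 3 forms, against 16 of 419 (3.82%, with 2.39% higher and 1.43% lower in deficient tumours). With 1 tumour left out that count ran from 9 (without deficient tumour 3, or without wild-type tumour 3) to 53 (without deficient tumour 4).

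mmu-miR-322-5p had a log2 signal of 7.58 at the lowest, 8.64 at the median and 9.39 at the highest in the 7 deficient tumours, against 8.11, 8.54 and 9.05 in the 6 wild-type tumours. The deficient tumours held both the highest and the lowest value, and the groups overlapped. The means were 8.59 ± 0.60 in deficient and 8.56 ± 0.36 in wild-type tumours (SD, n = 7 and 6). The difference of 0.03 (SE 0.28, 95% interval -0.57 to 0.63, limma adjusted p = 0.990) was smaller than either SD.

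mmu-miR-503-5p had a log2 signal of 4.10 at the lowest, 5.25 at the median and 6.85 at the highest in deficient tumours, against 4.10, 5.91 and 7.34 in wild-type tumours. The lowest value in each group is the floor, held by deficient tumour 2 and wild-type tumour 5, in which the form was not detected. The groups overlapped over most of their range. The means were 5.30 ± 0.87 in deficient and 5.82 ± 1.08 in wild-type tumours (SD, n = 7 and 6), a difference of -0.52 (SE 0.50, 95% interval -1.58 to 0.55, limma adjusted p = 0.684).

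mmu-miR-351-3p had a log2 signal of 6.32 at the lowest, 7.52 at the median and 8.35 at the highest in deficient tumours, against 4.99, 7.28 and 8.17 in wild-type tumours. Wild-type tumour 3 was lowest, and the other 12 tumours overlapped between the groups. The means were 7.39 ± 0.78 in deficient and 6.95 ± 1.19 in wild-type tumours (SD, n = 7 and 6), a difference of 0.44 (SE 0.50, 95% interval -0.64 to 1.52, limma adjusted p = 0.741).

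**Figure D2:**
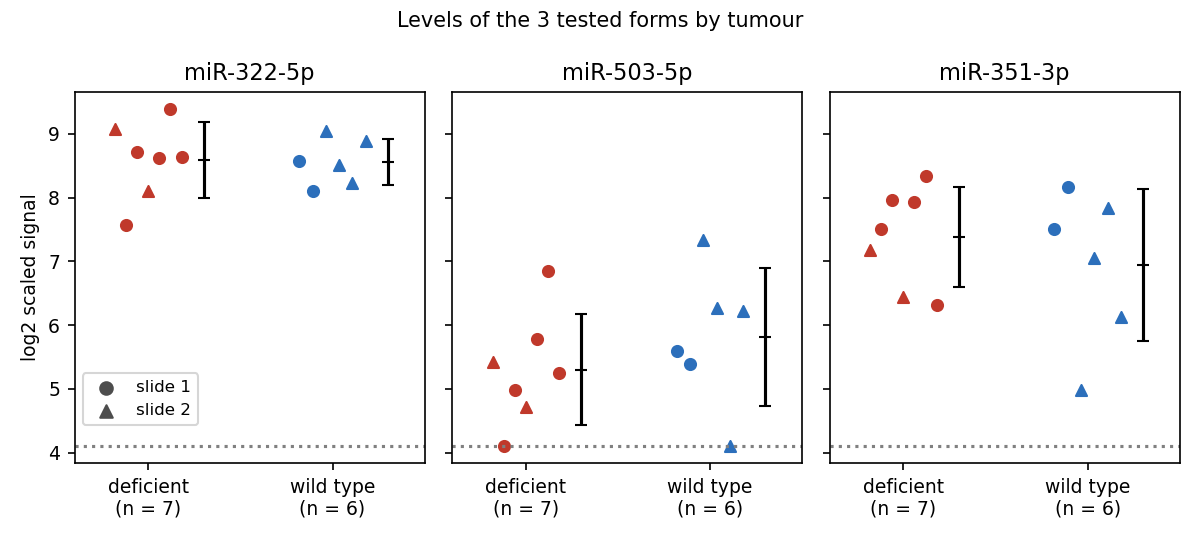
Log2 scaled signal of the 3 tested forms in each tumour, deficient tumours left of wild-type tumours, with group mean and SD and with the slide marked by symbol. The dotted line is the floor at 4.10, where 2 values of miR-503-5p sit, and the groups overlap for all 3 forms.

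These differences were read with the slides taken into account. With the slide as a block, the difference was 0.09 for miR-322-5p, -0.49 for miR-503-5p and 0.04 for miR-351-3p. miR-351-3p was 7.68 ± 0.68 in the 7 tumours of slide 1 and 6.60 ± 0.99 in the 6 of slide 2 (SD), a difference of 1.08 by an exact two-sided permutation test (p = 0.0390, adjusted p = 0.117 over the 3 forms). Its difference between deficient and wild-type tumours was -0.22 on slide 1 alone and 0.31 on slide 2 alone, so its sign was not the same on both. For miR-503-5p the differences on slides 1 and 2 were -0.10 and -0.91, and for miR-322-5p they were 0.25 and -0.08. Between slides, the exact permutation p was 0.668 for miR-322-5p and 0.653 for miR-503-5p.

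The median difference of the 3 forms was 0.03, beside 0.04 over all 419 tested miRNAs. The mean was higher in deficient tumours for 2 of the 3 forms, against 54.2% of all tested miRNAs. When arrays were scaled by their summed signal, 1 of the 3 was higher, against 42.5% of all tested. The spread over tumours differed among the forms: the SD over 13 tumours was 0.98 for miR-351-3p and 0.97 for miR-503-5p, ranks 78 and 81 of 419. It was 0.48 for miR-322-5p, rank 239, beside a median of 0.53 over all tested.

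The closest relatives by seed were set beside the cluster. Among the 5 other members of the miR-15/16 family, which repress cell cycle genes, limma called 0. Their differences were 0.21 (SE 0.22) for miR-15a-5p, 0.31 (SE 0.26) for miR-15b-5p, 0.16 (SE 0.23) for miR-16-5p, 0.04 (SE 0.22) for miR-195-5p and 0.04 (SE 0.18) for miR-497-5p. All 5 means were higher in deficient tumours, against 54.2% of all tested miRNAs. The 5 are not independent readings, since miR-15b-5p and miR-16-5p have neighbouring entries on chromosome 3. Under summed-signal scaling 3 of 5 were higher, against 42.5% of all tested. Under quantile normalization it was 4 of 5, against 57.8%. Of the miR-125 forms that carry the miR-351-5p seed, 0 were called, with differences of 0.13 for miR-125a-5p and -0.12 for miR-125b-5p. Both of these were detected on 13 of 13 arrays, unlike miR-351-5p itself.

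**Figure D3:**
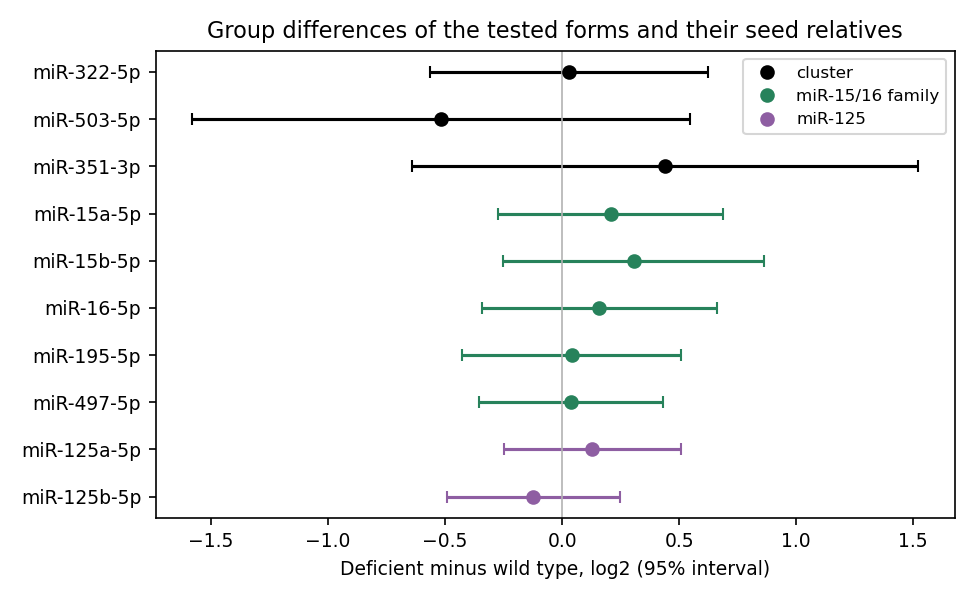
Difference in log2 signal (deficient minus wild type) with 95% interval for the 3 tested forms of the cluster and for the miR-15/16 and miR-125 relatives. Every interval includes 0.

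Whether the cluster's forms varied together across tumours was asked of pairs. The rule set for pairs, detection on at least 12 arrays, left miR-322-5p with miR-351-3p. miR-503-5p was added after its detection on 11 arrays was seen, which gave 3 pairs. Each of the 3 tested forms was read by 2 probes, whose linear signals correlated over the 13 tumours with r between 0.956 and 0.992. The lowest r was that of miR-503-5p, and 1 of its probes was near background in most tumours. That probe had spots marked well above background only in wild-type tumours 3, 4 and 6 (100%, 10% and 70%) and deficient tumour 6 (40%).

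miR-322-5p and miR-503-5p varied together. Over the 13 tumours Pearson's r was 0.768 (permutation p = 0.00217, adjusted p = 0.00651 over 3 pairs) and Spearman's rho was 0.657 (permutation p = 0.0164, adjusted p = 0.0492). Deficient tumour 6 was highest in miR-322-5p and next to highest in miR-503-5p, and deficient tumour 2 was lowest in miR-322-5p and at the floor in miR-503-5p. Without the 2 tumours farthest from the median of miR-322-5p, r was 0.620 (permutation p = 0.0387).

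The correlation of this pair was positive in both slides and both groups. On slide 1 alone r was 0.873 (exact permutation p = 0.0294, n = 7), and on slide 2 alone 0.720 (exact permutation p = 0.125, n = 6). It was 0.887 among deficient tumours (exact permutation p = 0.0107, n = 7) and 0.815 among wild-type tumours (exact permutation p = 0.0458, n = 6). Adjusted over the 6 within-group correlations, the exact permutation p was 0.0321 for deficient and 0.0687 for wild-type tumours. With only the 11 tumours in which miR-503-5p was detected, r was 0.654 (permutation, adjusted p = 0.0886), and with normexp background correction over all 13 it was 0.387 (permutation, adjusted p = 0.495).

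No correlation of miR-351-3p with the other forms passed the test over all tumours. Its r with miR-322-5p was -0.173 (permutation p = 0.570) and its rho was -0.0934. With miR-503-5p its r was -0.368 (permutation p = 0.216, adjusted p = 0.325). The sign was not the same on both slides: r with miR-322-5p was 0.197 on slide 1 and -0.475 on slide 2, and r with miR-503-5p was 0.389 on slide 1 and -0.790 on slide 2. The exact permutation p on slides 1 and 2 was 0.614 and 0.347 with miR-322-5p, and 0.360 and 0.0611 with miR-503-5p (n = 7 and 6). Without wild-type tumour 3, the lowest in miR-351-3p and the highest in miR-503-5p, these values of r were 0.0338 and 0.0142.

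For miR-351-3p the sign of r was not the same in both groups. Its r with miR-322-5p was 0.369 among deficient tumours (exact permutation p = 0.423, n = 7) and -0.953 among wild-type tumours (exact permutation p = 0.00278, n = 6, adjusted p = 0.0167 over 6 correlations). Wild-type tumours 2 and 5 were lowest in miR-322-5p and highest in miR-351-3p, and wild-type tumours 3 and 6 were the reverse. The miR-351-3p signal of wild-type tumour 3 was near background. Over 9 other scalings and summaries the wild-type r lay between -0.964 and -0.580, the weakest being without scaling. With miR-503-5p the r was 0.489 among deficient and -0.842 among wild-type tumours (exact permutation p = 0.272 and 0.0375, n = 7 and 6, adjusted p = 0.327 and 0.0687). The difference between the groups' correlations was not tested.

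**Figure D4:**
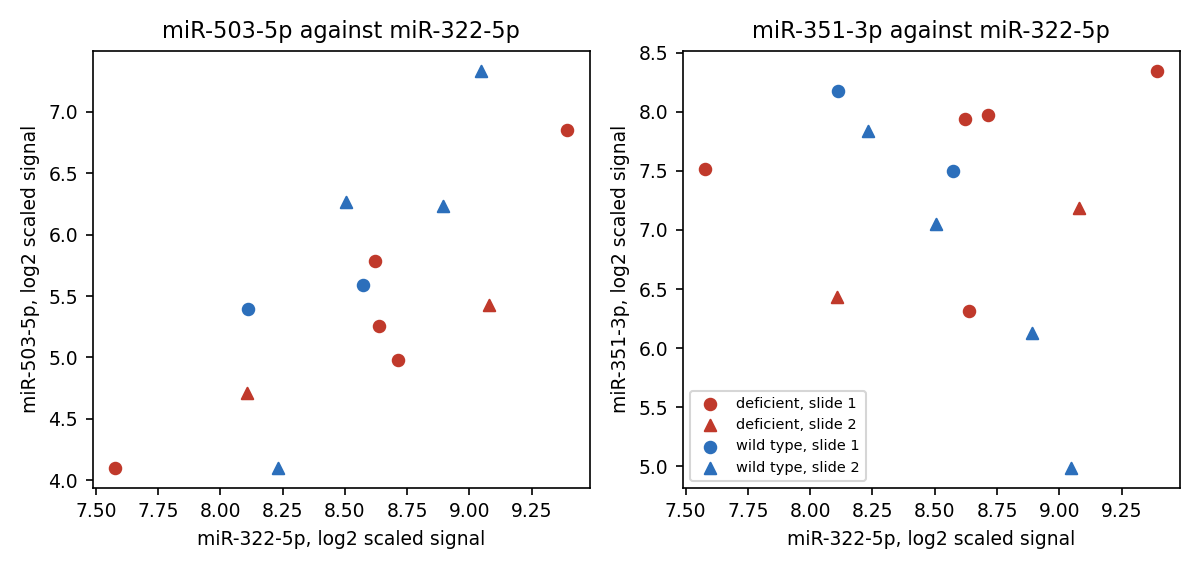
Log2 scaled signal of miR-503-5p (left) and miR-351-3p (right) against that of miR-322-5p, 1 point for each tumour, by group (colour) and slide (symbol). miR-503-5p is higher where miR-322-5p is higher (r 0.768 over 13 tumours), while for miR-351-3p the wild-type points run downward (r -0.953) and the deficient points do not (r 0.369).

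The seed relatives of miR-322-5p were compared with it and with miR-503-5p in 10 correlations over 13 tumours. The highest was miR-322-5p with miR-195-5p, at r 0.610 (permutation p = 0.0268, adjusted p = 0.268; rho 0.544), with 0.846 on slide 1 and 0.153 on slide 2. Without the 2 farthest tumours it was 0.0898. None of the 10 passed adjustment.

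Markers of other cell types were set against the 3 forms, with array brightness and the number of detected miRNAs, in 21 correlations. None passed adjustment. The highest r with miR-322-5p was that of the endothelial list (miR-126-3p and miR-126-5p), at 0.661 (permutation p = 0.0145, adjusted p = 0.272; rho 0.577). On slide 1 this was 0.926 and on slide 2 it was 0.0650, with 0.308 without the 2 farthest tumours. By group it was 0.914 among deficient and -0.285 among wild-type tumours. Slide 1 held 5 of the 7 deficient tumours, and slide and group were not separated in these correlations. The summed endothelial signal ranged from 1110 to 4494 in deficient and from 1522 to 2850 in wild-type tumours. In mean, 2 of 2 list members were higher in deficient tumours, against 54.2% of all tested miRNAs, and 0 were called. The 2 members are the arms of 1 hairpin and not independent readings.

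The stromal list of 6 microRNAs, among them miR-143-3p and miR-199a-3p of smooth muscle and fibroblasts, had r 0.611 with miR-322-5p (permutation p = 0.0259, adjusted p = 0.272; rho 0.615). On slide 1 this was 0.874, on slide 2 it was 0.116, and it was 0.565 without the 2 farthest tumours. By group it was 0.907 among deficient and 0.357 among wild-type tumours. The summed stromal signal ranged from 894 to 2405 in deficient and from 1055 to 2824 in wild-type tumours. In mean, 5 of 6 members were higher in deficient tumours, against 54.2% of all tested miRNAs, and 0 were called. With miR-503-5p the endothelial list had r 0.112 and the stromal list 0.162. The part of these cell types in the miR-322-5p levels was not tested.

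Skeletal muscle microRNAs separated 3 tumours from the other 10. Deficient tumours 3 and 4 and wild-type tumour 1 had a muscle list mean of at least 9.49 (log2), against at most 7.23 in the other 10. miR-322-5p lay between 8.11 and 8.71 in those 3 tumours and between 7.58 and 9.39 in the other 10. miR-503-5p lay between 4.71 and 5.59 in the 3 and between 4.10 and 7.34 in the 10. miR-351-3p lay between 6.44 and 7.97 in the 3 and between 4.99 and 8.35 in the 10. The cluster's levels in these 3 tumours lay inside the range of the other 10, in which muscle microRNAs were also detected at lower levels. The 3 tumours were picked from these data, and the muscle list was not among the correlations above. The part of muscle in the cluster's levels was not tested.

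**Figure D5:**
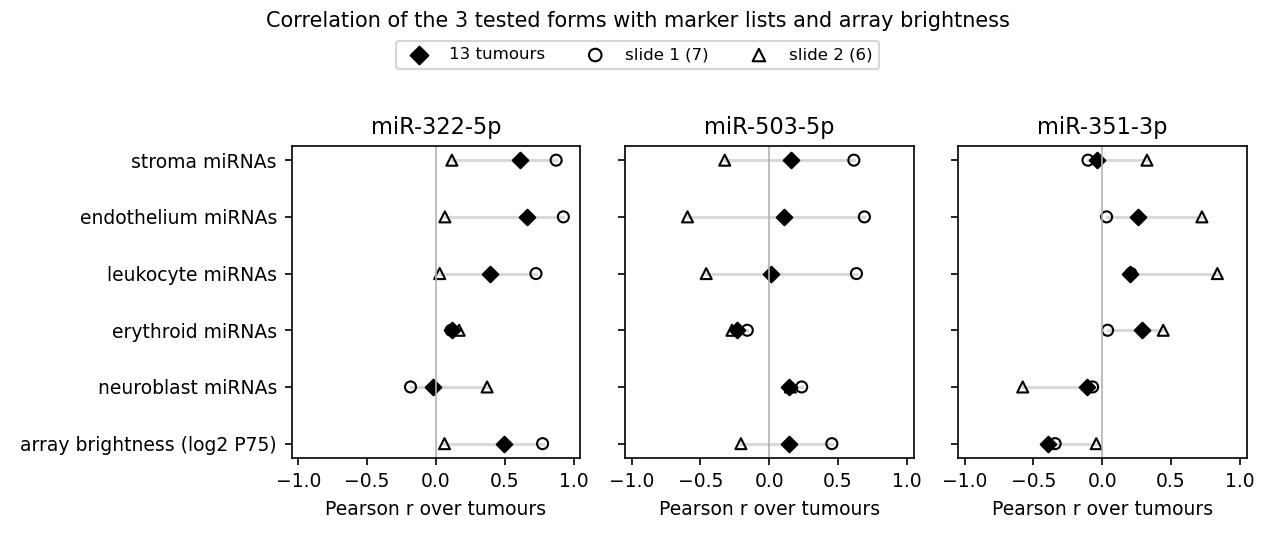
Pearson's r of each tested form with the marker lists and with array brightness (the log2 75th percentile of the array) over 13 tumours and within each slide. For miR-322-5p with the endothelial and stromal lists, the slide 1 points (0.926 and 0.874) lie far from the slide 2 points (0.0650 and 0.116).

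The rule for likeness compared every tested miRNA outside the cluster with the mean of the forms detected on at least 12 arrays, miR-322-5p and miR-351-3p. The 5 nearest were miR-541-3p (r 0.861), miR-712-5p (0.823), miR-500-3p (0.811), miR-2861 (0.808) and miR-760-3p (0.797). These followed miR-351-3p, which varied more, rather than miR-322-5p: their r was at least 0.807 with miR-351-3p and between -0.236 and 0.114 with miR-322-5p. The correlations are descriptions, since all levels of a tumour share 1 array.

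Likeness was therefore also read for each form, a choice made after the values were seen. miR-322-5p was nearest to miR-27a-3p (r 0.859) and miR-23a-3p (r 0.775), which come from 1 hairpin cluster on another chromosome. Within slides 1 and 2 these were 0.939 and 0.762 for miR-27a-3p, and 0.942 and 0.699 for miR-23a-3p. miR-503-5p was nearest to miR-132-3p (r 0.759), a microRNA induced by neuronal activity, and miR-210-3p (r 0.698), which is induced by hypoxia, followed by miR-27a-3p (r 0.688). On slides 1 and 2 these were 0.446 and 0.905 for miR-132-3p, 0.873 and 0.752 for miR-210-3p, and 0.782 and 0.724 for miR-27a-3p. miR-351-3p was nearest to miR-2861 (r 0.955), miR-290-5p (r 0.927) and miR-712-5p (r 0.926), with 0.887 and 0.958, 0.938 and 0.867, and 0.873 and 0.940 on slides 1 and 2. Of the 416 miRNAs compared, 12 had r of at least 0.8 with miR-351-3p, 1 with miR-322-5p and 0 with miR-503-5p.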

How the data were processed

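Tumour RNA had been isolated with Trizol and labelled with Cy3, per the labels' protocols. The authors' deposited scanner files held the spot intensity on a linear scale, background-subtracted and not scaled between arrays, per the file headers. The headers named Feature Extraction 10.7.3.1 and the submitters' processing notes 10.5.1.1. The deposited series matrix held log2 values with a median of 3.82 in every column. All 13 columns matched their own array best, and its software, background step and probe summary are not stated in the sources used here. Detection marks were deposited as other yes or no values, per the file headers. The array design was made for mm9, whereas the sequences and coordinates are of GRCm38.p6.

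Control and outlier spots were left out, spots were averaged for each probe and probes summed for each miRNA. Each array was scaled to its 75th percentile, taken over 294 mouse miRNAs that every array detected. Signals below the 1st percentile of detected values (17.2, or 4.10 on the log2 scale) were set to it. Detection on 6 or more arrays left 419 mouse miRNAs, which were tested with limma 3.58.1 in R 4.3.3, deficient minus wild type, two-sided, with Benjamini-Hochberg adjustment at 0.05. The fit was run on simulated data drawn independently for each miRNA and array, without a slide effect or a floor. That run checked the code and cannot show how the fit behaves on these data. Correlations used 100000 permutations, or all orders within slides and groups, in NumPy 2.4.6 with ranks from SciPy 1.17.1. Slide differences used all 1716 splits. Slides were read from the array barcodes.

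Named were all forms of the cluster and of miR-450b, the miR-15/16 and miR-125 relatives, and the 5 miRNAs most like the cluster. Markers were listed for 6 cell types. Of the 3 erythroid markers, miR-486-5p was not matched by name, and of the 5 leukocyte markers miR-150-5p was detected on too few arrays to be tested. The median difference was -0.20 for the neuroblast, -0.03 for the muscle, 0.83 for the erythroid, 0.02 for the leukocyte, 0.35 for the endothelial and 0.24 for the stromal list, with 0 members called in each. The members and lists were chosen with earlier results of these data known. The balance of the arms of miR-322 and miR-542 was planned, but could not be computed because 1 or both arms were detected on no array. Alternatives covered scaling, background, probe summary, floor, detection filter, variance model, array weights, slide, replicate number and each tumour left out.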

Additional observations from a re-analysis of the deposited data

How the results depend on the processing

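The count of called miRNAs stayed at 0 under 15 other settings and with each of the 13 tumours left out, when the smallest limma adjusted p lay between 0.183 and 0.833. At an unadjusted p under 0.05 the count was 16, against 63 with the replicate block, 47 with array weights, 34 without scaling, 26 with the percentile over all miRNAs, 10 with 4 times the floor and 9 among miRNAs detected on all arrays. Leaving out 1 tumour also moved it by over 1.5 times: to 53 without deficient tumour 4, 37 without deficient tumour 7, 10 without deficient tumour 5, 9 without deficient tumour 3, 31 without wild-type tumour 4, 30 without wild-type tumour 2 and 9 without wild-type tumour 3. Summed-signal scaling moved the median difference of all tested miRNAs by -0.11, normexp by -0.10 and no scaling by 0.18.

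With the replicate block the differences were 0.02 for miR-322-5p, 0.62 for miR-351-3p and -0.51 for miR-503-5p, and the smallest limma adjusted p was 0.0794. The numbers were not taken to pair the tumours: same-numbered tumours correlated at -0.220 to 0.194, 3 of 6 pairs were over 0.1, and 1 of 6 deficient tumours matched its own number best.

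The difference of miR-322-5p turned to -0.0816 under summed-signal scaling and to -0.0762 within slide 2, and was 0.32 with array weights. With each tumour left out it ran from -0.10 to 0.20. It was negative without wild-type tumour 2 or 5 or deficient tumour 1 or 6. That of miR-351-3p turned to -0.22 within slide 1 and ran from 0.05 to 0.69 with each tumour left out. That of miR-503-5p turned to 0.12 with array weights and ran from -0.86 to -0.21, and had no value among miRNAs detected on all arrays. The causes were not tested.

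The correlation of miR-322-5p with miR-503-5p missed the threshold with normexp (r 0.387), with 4 times the floor (0.553), within slide 1 (0.873), within slide 2 (0.720) and in the 11 tumours with miR-503-5p detected (0.654), the last 3 with fewer tumours. It passed under the 7 other settings and with each tumour left out (0.700 to 0.821). That of miR-322-5p with miR-351-3p turned to 0.00310 with the percentile over all miRNAs and 0.197 within slide 1, against -0.475 within slide 2, and ran from -0.440 to 0.0338. That of miR-503-5p with miR-351-3p turned to 0.294 with normexp and 0.389 within slide 1, against -0.790 within slide 2, and ran from -0.602 to 0.0142. The number of correlated pairs was 0 under the planned rule and 1 with pairs detected on at least 6 arrays. The pairs with miR-503-5p, the total gene signal and the restriction to detected tumours were chosen after seeing the data. The arm balances were not run. The signals of miR-503-5p lay near the floor, at which 2 of its 13 values stood.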
